A study of Mus musculus with 2 samples.

Results

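Slc4a1, Ank1, Epb42, Kel, Slc25a37, Alas2 and Klf1 are 7 genes of red cell formation, chosen by symbol from the 32285 genes of the count matrices: 4 of the red cell membrane, 2 of iron and heme handling and 1 transcription factor. Globin genes were left out of the selection, and all 7 symbols were found, each once. The data were single-cell RNA counts of whole mouse embryos at embryonic day 9.5, with 1 library of wild-type (Usb1+/+) embryos and 1 library of Usb1-null embryos. The labels name the molecule as nuclear RNA, whereas the study describes a suspension of single cells. Whether the levels below are of whole cells or of nuclei is therefore not settled. The null embryos carried a germline deletion of Usb1, the nuclease that shortens the U6 snRNA tail, in every tissue including the blood, and the study describes them as smaller than wild-type embryos at this stage. How many embryos or litters were pooled for a library is not stated in the sources. With 1 library per genotype no difference below has a replicate check, and each interval is a 95% interval of counting error alone.

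Red cells begin in the yolk sac, where the first, primitive wave enters the circulation at about this stage, still nucleated. Maturing erythroid cells load iron into mitochondria, build heme, fill with globin and lay a spectrin skeleton under the membrane. Slc25a37 (mitoferrin 1) carries iron into the mitochondrion and Alas2 catalyses the first, rate-limiting step of erythroid heme synthesis. Slc4a1 (band 3) exchanges chloride for bicarbonate and anchors the skeleton, Ank1 (ankyrin 1) ties band 3 to spectrin, Epb42 (protein 4.2) steadies that bond, and Kel is the Kell blood group endopeptidase of the surface. Klf1 is a zinc finger factor that binds CACCC motifs of erythroid promoters, many of which are also bound by GATA1.

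RefSeq promoter sequence was at hand for Alas2, Epb42, Kel and Klf1, 4 of the 7 genes. The stretches around the GATA words lying before the annotated starts are shown because GATA1 recognises such words in genes of this kind. Among them, the stretch of the Klf1 gene also holds a CACCC, the motif that the Klf1 protein binds. Capitals mark CACCC and the GATA words, which were AGATAA and its variant TGATAA together with AGATAG and its variant TGATAG, searched on both strands, in GRCm38.p6, each printed 5′ to 3′ along its gene.
Alas2 (chrX:150547323-150547344, plus strand): tttgctttTTATCTttagcaga
Epb42 (chr2:121037090-121037111, minus strand): ctatttccTTATCTcgttcaaa
Kel (chr6:41704368-41704389, minus strand): agaaactaAGATAAaagaggag
Klf1 (chr8:84901860-84901915, plus strand): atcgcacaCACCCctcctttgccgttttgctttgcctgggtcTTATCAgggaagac

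A GATA word lay in the 250 bases before the start of all 4 genes, at −86 in Alas2, −226 in Epb42, −56 and −19 in Kel and −80 in Klf1. CACCC was present in 3 of the 4, with 3 copies in Alas2, 1 in Kel and 1 in Klf1. No GATA word shared a base with a CACCC. Of the 32851 promoter sequences of the same length, 26.5% held a GATA word, 52.0% held CACCC and 11.8% held both. These matches describe the letters only and were not tested for binding. Alas2 also carries the hairpin by which iron regulatory proteins hold back its translation. It is shown because iron acts on the making of this enzyme through it, and its loop is in capitals.
Alas2 iron-responsive element (chrX:150547461-150547483, plus strand): gttcgtcctCAGTGcagggcaac
It lies in exon 1 of the transcript in the GENCODE M21 annotation, within the 5′ untranslated region, and 5 of 5 base pairs of its upper stem can form.

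In GRCm38 the genes lie at chrX:150547375-150570638 (Alas2, plus strand), chr11:102348824-102366203 (Slc4a1, minus), chr8:22974844-23150497 (Ank1, plus), chr2:121017891-121037072 (Epb42, minus), chr6:41686330-41704339 (Kel, minus), chr14:69241848-69285112 (Slc25a37, minus) and chr8:84901928-84905291 (Klf1, plus). All are annotated as protein coding. Alas2 lies wholly inside the annotated span of Apex2 on the opposite strand. Ank1 is overlapped by the antisense Gm15816 (20 UMIs in wild-type, 11 in Usb1-null) and Slc25a37 by the antisense Gm27222 (3 and 22 UMIs). The sources do not say whether counting used the strand, so these 3 genes carry that uncertainty.

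The wild-type library held 15161 cells and 21732106 UMIs (unique molecular identifiers, 1 for each captured transcript), and the Usb1-null library 13018 cells and 33383886 UMIs, with medians of 1243 and 2299.5 UMIs per cell. The lowest barcode of either library held 500 UMIs. In all, 61 barcodes occurred in both libraries, 0.402% of the wild-type and 0.468% of the null barcodes. Usb1 itself had 68 UMIs in wild-type and 47 in null, or 3.13 and 1.41 CPM. CPM is the level scale used throughout, on which 10000 CPM is 1% of the UMIs summed. Since 3′ tags fall outside the deleted first exons, this value does not check the label. Xist had 53276 UMIs in wild-type and 26 in null, and 4 Y-linked genes had 14 and 23463, so the sex of the embryos and their genotype cannot be told apart. This touches the X-linked Alas2.

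To find the erythroid cells without using the 7 genes, cells were clustered with these left out, and a primitive erythroid-like cluster was named from 16 other markers. All 16 were raised in it in each library, among them Hbb-y, Hbb-bh1 and Hba-x, the embryonic globins. In wild-type embryos it took in 565 cells, or 3.73% (3.43 to 4.04), and in null embryos 186, or 1.43% (1.23 to 1.65). Of these, 447 wild-type and 51 null cells had under 1000 genes, and with a minimum of 1000 genes for every cell the shares were 1.31% and 1.10%. Embryonic globins gave 9575 and 3419 UMIs in the cluster and the adult Hbb-bs and Hbb-bt 60 and 39. All globins together made up 1.76% of its UMIs in wild-type and 1.01% in null, and mitochondrial genes 0.575% and 0.461%. How far the nuclear label bears on these shares was not tested. The 12 markers of white blood cells and megakaryocytes summed to 212 CPM in the wild-type and 198 in the null cluster, with 4 and 7 of them at 0. Of the 12, 7 in wild-type and 4 in null were over 2-fold above the other cells. Among these, Itga2b had 138 CPM beside 3.46 in the other wild-type cells, and 144 beside 2.54 in null. Pf4 had 44.4 beside 1.75 CPM in wild-type and 34.8 beside 0.0606 in null. The 10 endothelial markers summed to 196 and 206 CPM, with 0 of 10 over 2-fold above the other cells in either library. The 10 markers of yolk sac and hepatic endoderm differed, with 18.1 CPM in wild-type (11 UMIs, 8 genes at 0) and 123 in null (46 UMIs, 2 genes at 0), and 0 and 3 of them over 2-fold. Their part in the values below was not tested.

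The 7 genes marked this cluster strongly in both libraries. Kel was 263-fold higher in erythroid than in other wild-type cells and 547-fold higher in Usb1-null cells. Epb42 was 256-fold and 241-fold higher, Ank1 166-fold and 170-fold, and Slc4a1 94.4-fold and 184-fold. The folds were lower for Klf1 (41.0 and 41.2), Slc25a37 (40.2 and 34.5) and Alas2 (18.3 and 13.1). All 7 thus passed 10-fold in both, against 0.985% of genes in the wild-type and 0.804% in the null library. The membrane genes were the most restricted and the heme and iron genes the least.

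**Figure D1:**
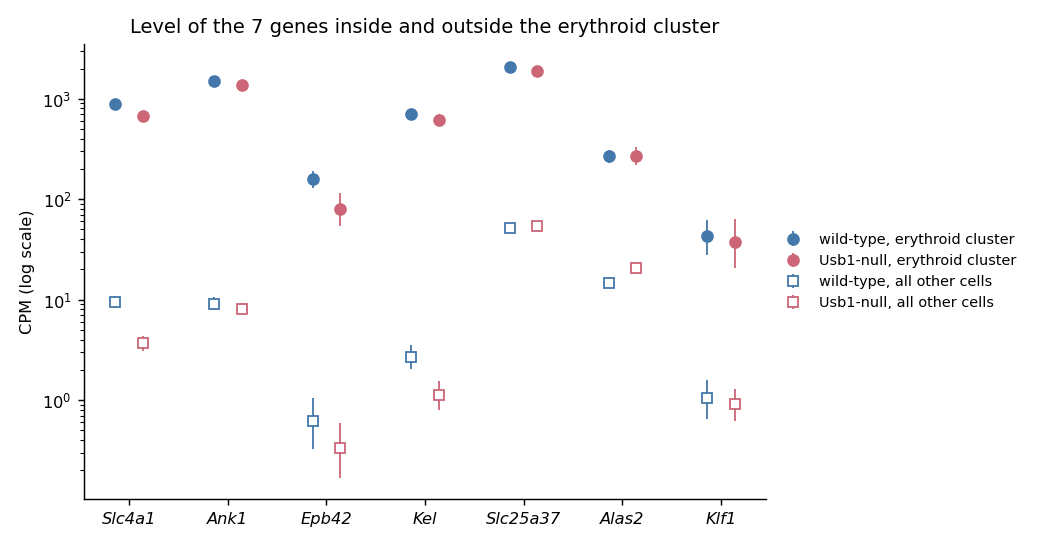
Level of each gene as CPM on a log axis, in the erythroid cluster (filled circles) and in all other cells (open squares), for the wild-type (blue) and Usb1-null (red) library. Bars are exact Poisson 95% intervals and 1 library stands behind each point. Every gene lies at least 13.1-fold higher in the erythroid cluster, and the 2 libraries lie close together there except for Epb42 and Slc4a1.

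In whole libraries the membrane genes were much lower in Usb1-null embryos. Slc4a1 had 34.2 CPM in wild-type and 11.2 in null, a ratio of 0.326 (0.287 to 0.370). Ank1 had 51.3 and 23.5 CPM, a ratio of 0.458 (0.417 to 0.502). Kel had 22.5 and 7.97 CPM, a ratio of 0.354 (0.304 to 0.412). Epb42 had 5.02 and 1.23 CPM, a ratio of 0.245 (0.167 to 0.354). These 4 of the 7 were past 2-fold lower with 1 CPM added, a bound that 0.465% of the 18921 genes with at least 20 UMIs passed in the same direction and 1.37% in the other. The 8 globin genes summed to 815 and 185 CPM, a ratio of 0.228 (0.221 to 0.234).

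The other members differed less in whole libraries. Slc25a37 had 107.9 CPM in wild-type and 74.9 in null, a ratio of 0.695 (0.657 to 0.735). Klf1, with 48 and 44 UMIs in all, was at 2.21 and 1.32 CPM, a ratio of 0.597 (0.387 to 0.918). Alas2 was at 21.7 and 23.4 CPM, a ratio of 1.08 (0.960 to 1.21). In such library sums, fewer cells of a type and less RNA per cell cannot be told apart. With the null cluster levels weighted by the wild-type cluster shares, the 7 summed to a ratio of 0.919 in place of 0.586, and 0 of the 7 passed 2-fold. With cells of fewer than 1000 genes left out the summed ratio was 0.970, also with 0 of the 7 past 2-fold. With doublets removed 3 of the 7 passed it, and Ank1 was at −0.94 on the log2 scale.

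Summed over the erythroid cluster, 5 of the 7 had ratios between 0.863 and 1.01, values that mix cells of different depth and are split further below. Ank1 had 1514 CPM in wild-type and 1378 in null (ratio 0.910, 0.815 to 1.01), from 921 and 515 UMIs. Kel, the surface endopeptidase, had 710 and 613 CPM (ratio 0.863, 0.732 to 1.02). Slc25a37 had 2068 and 1881 CPM (ratio 0.910, 0.828 to 0.998), so its interval ended just short of 1. Alas2, the first enzyme of heme synthesis, had 268 and 270 CPM (ratio 1.01, 0.779 to 1.30). Klf1 had 42.7 and 37.5 CPM from 26 and 14 UMIs (ratio 0.876, 0.423 to 1.74), which leaves a wide interval.

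Band 3 and its partner protein 4.2 had the lowest ratios in the cluster sums. Slc4a1 had 894 CPM in wild-type and 674 in null, a ratio of 0.754 (0.647 to 0.877). Epb42 had 158 and 80.3 CPM from 96 and 30 UMIs, a ratio of 0.509 (0.326 to 0.773). Epb42 stopped just inside 2-fold at −0.97 on the log2 scale with 1 CPM added, so 0 of the 7 passed 2-fold. Of the 7970 genes tested there, 4.55% passed it lower and 2.94% higher. The median log2 ratio was −0.19 over the 7 and −0.03 over all genes tested. The 7 summed to 5654 and 4933 CPM, a ratio of 0.872 (0.824 to 0.923), and the globins to 17581 and 10142, a ratio of 0.577 (0.556 to 0.599).

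**Figure D2:**
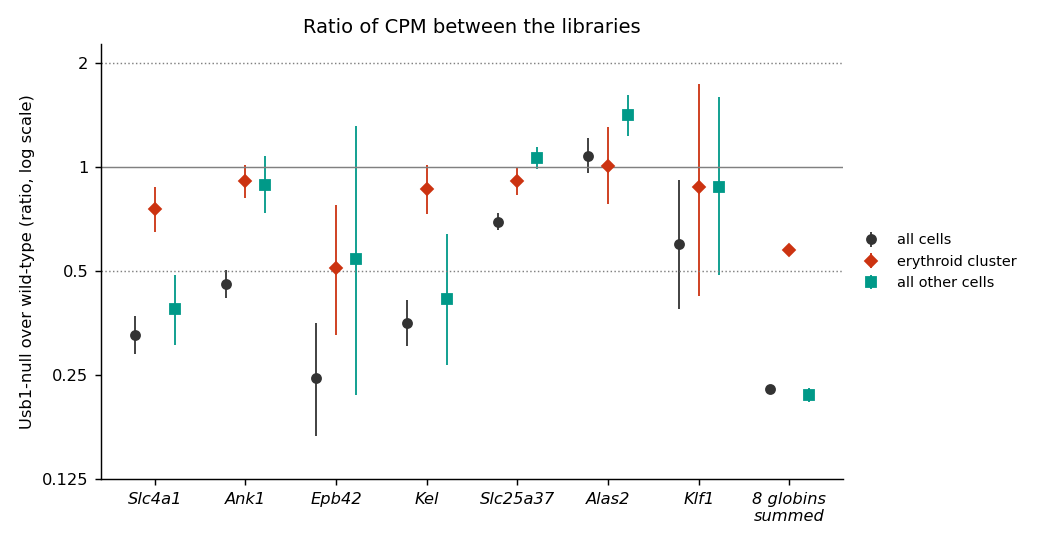
Ratio of CPM, Usb1-null over wild-type, on a log axis, for each gene and the 8 globins summed, in all cells (black circles), the erythroid cluster (red diamonds) and all other cells (green squares). Bars are exact conditional 95% intervals of counting error and dotted lines mark 2-fold. In the erythroid cluster 5 of the 7 genes lie between 0.863 and 1.01, above their whole-library ratios except for Alas2.

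Erythroid cells of the libraries differed in depth and in the share called as doublets. Median UMIs per cell were 819 in wild-type and 1708.5 in null, and Scrublet called 99 wild-type (17.5%) and 18 null (9.68%) erythroid cells as doublets. The following splits were chosen after the values were seen. Without the called doublets the 7 summed to 6991 CPM in 466 wild-type cells and 5416 in 168 null cells, a ratio of 0.775 (0.729 to 0.823), and Epb42 was at 202 and 89.0 CPM (ratio 0.441, 0.277 to 0.685). The intervals of Ank1 (ratio 0.805, 0.717 to 0.903), Kel (0.776, 0.653 to 0.921), Slc25a37 (0.808, 0.731 to 0.892) and Slc4a1 (0.684, 0.580 to 0.805) then also lay below 1. Among cells with under 1000 genes the summed ratio was 0.737 (0.648 to 0.835), from 447 wild-type and 51 null cells. Among those with at least 1000 genes it turned to 1.53 (1.41 to 1.67), from 118 wild-type cells of which 65.3% were called doublets and 135 null cells of which 11.1% were.

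Split at 1000 genes, single genes also took opposite directions. Kel had a ratio of 0.487 (0.305 to 0.744) under 1000 genes and 1.63 (1.28 to 2.09) from 1000 genes on. Ank1 had 0.713 (0.552 to 0.910) and 1.67 (1.41 to 1.97), and Slc25a37 had 0.735 (0.593 to 0.902) and 1.69 (1.47 to 1.95). Alas2 had 0.680 (0.342 to 1.23) and 1.82 (1.24 to 2.71). Slc4a1 was near 1 on both sides, at 1.08 (0.807 to 1.42) and 1.01 (0.810 to 1.25). Called doublets were kept: 4.92% of wild-type and 5.88% of null cells under 1000 genes, and 65.3% and 11.1% from 1000 genes on. The ratios from 1000 genes on thus mix depth with doublets. Without called doublets the Slc4a1 ratio over the whole cluster was 0.684 (0.580 to 0.805). Epb42 was below 1 on both sides, at 0.491 (0.155 to 1.20) and 0.817 (0.450 to 1.48), with intervals that held 1. Across the 13 alternative settings Epb42 stayed lower in null, with log2 ratios from −1.16 to −0.21, and Slc4a1 ran from −0.57 to 0.06. The others had both signs, and Alas2 ran from −0.64 with cells thinned to one depth to 0.81 with at least 1000 genes per cell.

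Detection per cell followed the same order of genes in both libraries. To remove the difference in depth, each cell was thinned to 571 UMIs, which left out 74 wild-type and 1 null erythroid cell. Slc25a37 then had a UMI in 67.6% (63.3 to 71.7) of wild-type and 55.7% (48.2 to 63.0) of null erythroid cells. Ank1 had one in 60.5% and 53.5%, Slc4a1 in 43.4% and 33.5%, and Kel in 36.3% and 30.3%. Alas2 had one in 17.3% and 11.9%, Epb42 in 8.96% and 5.95%, and Klf1 in 3.46% and 2.16%. All 7 shares were lower in null, and the intervals of the libraries overlapped for Ank1, Slc4a1, Kel, Alas2, Epb42 and Klf1.

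Before thinning, Slc25a37 was seen in 81.8% of wild-type erythroid cells, Ank1 in 74.7% and Slc4a1 in 56.1%. In the other cells the thinned shares were 3.08% in both libraries for Slc25a37, 0.549% and 0.212% for Slc4a1 and 0.162% and 0.0471% for Kel. At least 3 of the 7 genes were seen together in 69.2% (65.2 to 73.0) of wild-type and 78.5% (71.9 to 84.2) of null erythroid cells as counted, and in 48.1% (43.6 to 52.6) and 29.2% (22.8 to 36.3) after thinning. So the order of the libraries turned with depth. Outside the cluster 32 of 14596 wild-type and 14 of 12832 null cells held at least 3.

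In wild-type cells 6 of the 7 genes also varied with how much globin an erythroid cell held, beyond the intervals of at least a pair of ranges. Erythroid cells of both libraries were placed in 3 ranges of equal size, with bounds at 0.991% and 1.72% of UMIs from globins, and globins were left out of the totals. The libraries filled these ranges unevenly, with 127, 194 and 244 wild-type cells and 124, 56 and 6 null cells from the lowest range to the highest. Called doublets were kept in them. In wild-type the 7 summed to 2960 CPM in called doublets and 6991 in the other erythroid cells, and globins to 11512 and 20591. The part of doublets in the values by range was not tested. In wild-type cells Epb42 was at 97.5, 136 and 241 CPM from the lowest to the highest range. Slc25a37 was at 1288, 2359 and 2627 CPM. Alas2 was at 159, 325 and 330 CPM. Most of the difference in Slc25a37 and Alas2 thus lay between the lowest and the middle range, and Epb42 had its highest value in the top range. Klf1 was at 30.8, 36.7 and 61.3 CPM from 6, 7 and 13 UMIs, with intervals that overlapped throughout.

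The membrane genes Ank1, Kel and Slc4a1 followed the same step in wild-type cells. Ank1 was at 908, 1824 and 1868 CPM, Kel at 426, 860 and 873, and Slc4a1 at 590, 1127 and 1009. Inside a range the libraries did not differ by one ratio. In the middle range Ank1 was at 1895 CPM in null, Kel at 995, Slc25a37 at 2503 and Epb42 at 157 (87.9 to 259), each with an interval that held the wild-type value. So did the intervals of Alas2, at 220 (136 to 336), and of Klf1, at 52.4 (17.0 to 122). Slc4a1 at 733 (571 to 926) lay below its wild-type 1127 (981 to 1288), with no overlap of intervals. Cells of the middle range had a median of 818.5 UMIs in wild-type and 1590 in null. Split at 1000 genes with called doublets kept, Slc4a1 had ratios of 1.08 and 1.01. The parts of depth and of doublets in this difference were not tested. In the lowest range Alas2 was higher in null, at 295 (233 to 368) beside 159 (108 to 226) CPM, and so were Ank1 at 1232 (1102 to 1373) beside 908 (779 to 1052) and Slc25a37 at 1677 (1525 to 1841) beside 1288 (1133 to 1457). The lowest range held wild-type cells with a median of 1389 UMIs, beside 818.5 and 734 in the others, and null cells with a median of 1750. The part of depth in the values was not tested.

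**Figure D3:**
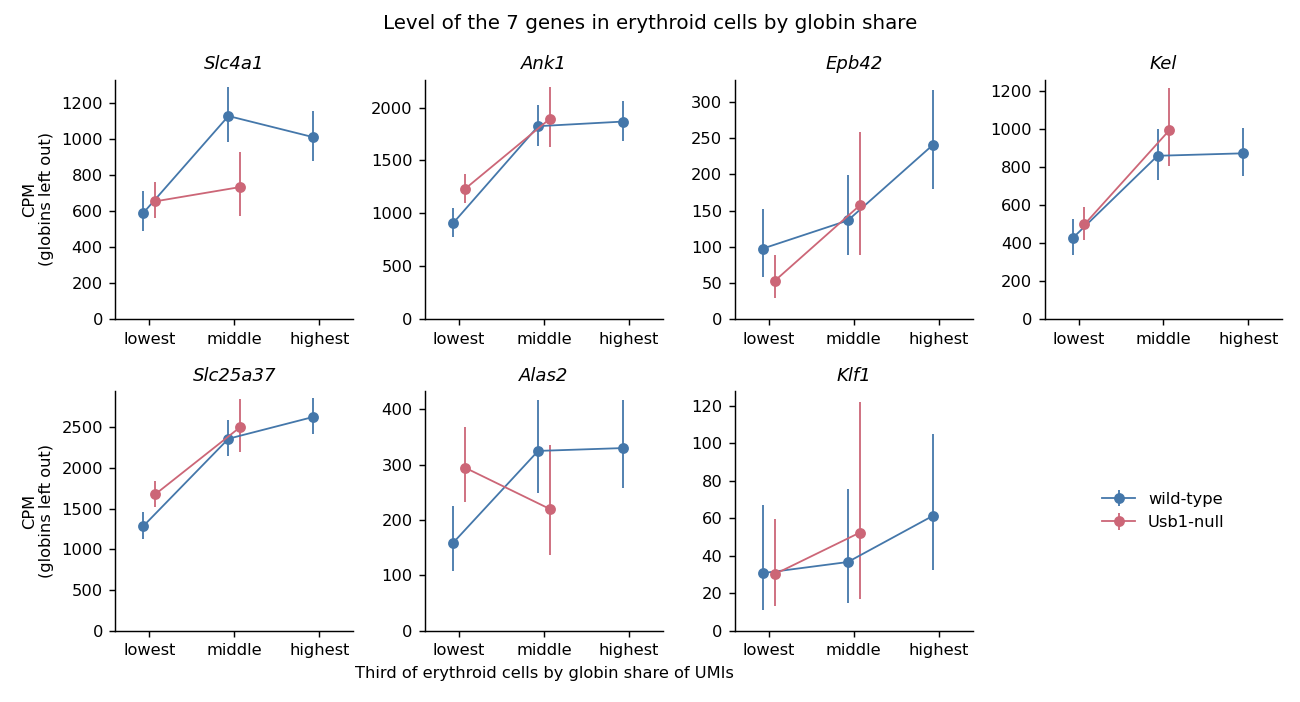
Level of each gene as CPM, with globins left out of the total, in erythroid cells of 3 ranges of globin share, wild-type in blue and Usb1-null in red. Bars are exact Poisson 95% intervals, and the highest range is left out for the null library, which had 6 cells there. Wild-type levels of Slc4a1, Ank1, Kel, Slc25a37 and Alas2 are lowest in the lowest range. In the middle range Slc4a1 is the gene whose null interval (571 to 926) stays below the wild-type one. Median UMIs per cell in that range were 818.5 in wild-type and 1590 in null.

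The place where each gene was counted separated the membrane genes from the iron and heme genes. The erythroid cluster held 2.80% of all UMIs in wild-type and 1.12% in null. It held 88.3% and 86.1% of the Kel UMIs, 88.1% and 73.2% of the Epb42 UMIs, 82.7% and 65.8% of the Ank1 UMIs and 73.1% and 67.6% of the Slc4a1 UMIs. For Slc25a37 it held 53.7% in wild-type and 28.1% in null, for Klf1 54.2% and 31.8%, and for Alas2 34.5% and 12.9%. Most Alas2 transcripts were therefore counted outside erythroid cells in both libraries. For the 7 summed the shares were 64.7% (63.4 to 65.9) and 38.5% (37.1 to 39.9), and for globins 60.4% and 61.2%. This contrast depended on the cells taken: it was 33.5% and 34.6% with at least 1000 genes per cell, and 52.2% and 13.4% with erythroid cells defined by at least 1% globin UMIs.

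In droplet data, RNA freed from broken cells is caught with every cell, and 1 such source would keep its genes in a fixed ratio. The globin UMIs of the other cells were therefore used to estimate how much of each gene would come along with them from erythroid cells. Summed over all other cells, the counts of the membrane genes did not exceed that estimate. Slc4a1 was counted at 0.561 of it in wild-type and 0.759 in null, Ank1 at 0.320 and 0.822, Epb42 at 0.207 and 0.579, and Kel at 0.201 and 0.255. At 1 fixed ratio these fractions would be alike and at least 1, but they lay below 1 and differed between the genes. The estimate thus ran high for these genes, so not exceeding it says little. How far it holds for Alas2, Slc25a37 and Klf1 was not tested. In 0 of the 18 other clusters with at least 100 cells per library did any of these 4 exceed it in both libraries. As plain ratios without intervals, single clusters lay above it in 1 library, each from few UMIs. Among them were null cluster 15 for Slc4a1 and Ank1 (2.79 and 1.36 of it, from 5 UMIs each) and null cluster 8 for Epb42 (1.78, from 2 UMIs). In wild-type they included cluster 17 for Slc4a1 (2.07, from 4 UMIs) and cluster 18 for Ank1 (1.12, from 6 UMIs). The lower Slc4a1 outside the cluster in null, 9.47 beside 3.67 CPM (ratio 0.387, 0.306 to 0.488), was past 2-fold there with 1 CPM added, as 1 of the 7, against 0.323% of genes lower and 1.34% higher. Kel, at 2.70 and 1.12 CPM, was past it only as a plain ratio (0.415, 0.267 to 0.639). Globins in the same cells were at 332 and 72.7 CPM, a ratio of 0.219. Ank1 did not share this difference, at 9.14 and 8.12 CPM (ratio 0.889, 0.736 to 1.07).

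Alas2 exceeded the estimate 2.89-fold in wild-type and 10.6-fold in null. Outside the erythroid cluster it had 309 UMIs in wild-type and 680 in null, or 14.6 and 20.6 CPM, a ratio of 1.41 (1.23 to 1.62). It was higher in null in 14 of the 18 clusters, and above the estimate in both libraries in 12 of them. These were the somite-like, neural crest-like, surface ectoderm-like, forebrain and midbrain-like, yolk sac and hepatic endoderm-like and neuron-like clusters and clusters 0, 1, 3, 6, 10 and 15. Clusters without a name are given by number: Pax6, Nrcam and Hes5 were among the leading genes of cluster 0, Pax5 and En1 of cluster 1, Pitx1 and Col1a1 of cluster 3, Foxf1 of cluster 6, Tbx1 and Ebf1 of cluster 10 and Postn and Dcc of cluster 15. Of those 12, the highest ratios were in cluster 6, at 8.96 CPM in wild-type and 28.8 in null (ratio 3.22, 1.72 to 6.56), and in forebrain and midbrain-like cells, at 9.79 and 23.4 (ratio 2.39, 1.32 to 4.58).

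In neuron-like cells the order of Alas2 was the opposite, 32.6 CPM in wild-type and 18.7 in null, from 10 and 5 UMIs (ratio 0.574, 0.154 to 1.84). The median over the 18 clusters was 13.1 CPM in wild-type and 19.7 in null, and cluster 8, where Alb, Apoa2 and Cps1 led, had the lowest level in both, 2.89 and 10.5. Thinned to 571 UMIs per cell, 0.746% (0.611 to 0.902) of wild-type and 1.31% (1.12 to 1.52) of null cells outside the erythroid cluster had an Alas2 UMI, so the order did not turn with depth. Apex2, the gene on the other strand, had 155 CPM in wild-type and 165 in null outside the cluster (ratio 1.06, 1.02 to 1.11). In the erythroid cluster Apex2 was at 199 and 300, so Apex2 and Alas2 did not differ by one ratio, but its part in the Alas2 counts was not tested.

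Slc25a37 exceeded the estimate 1.32-fold in wild-type and 4.04-fold in null outside the erythroid cluster. Its level there was alike in both, 51.4 and 54.5 CPM (ratio 1.06, 0.983 to 1.14), while globins in the same cells were 0.219 as high. It was above the estimate in both libraries in 7 of the 18 clusters: somite-like, neural crest-like, surface ectoderm-like and forebrain and midbrain-like cells and clusters 1, 3 and 15. Its highest levels were 71.4 CPM in wild-type somite-like cells and 72.5 in null surface ectoderm-like cells. Klf1 exceeded the estimate in both libraries in cluster 1 (5 and 7 UMIs) and in forebrain and midbrain-like cells (7 and 3 UMIs). Its 22 and 30 UMIs outside the cluster, 1.04 and 0.909 CPM, are too few to rank clusters.

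**Figure D4:**
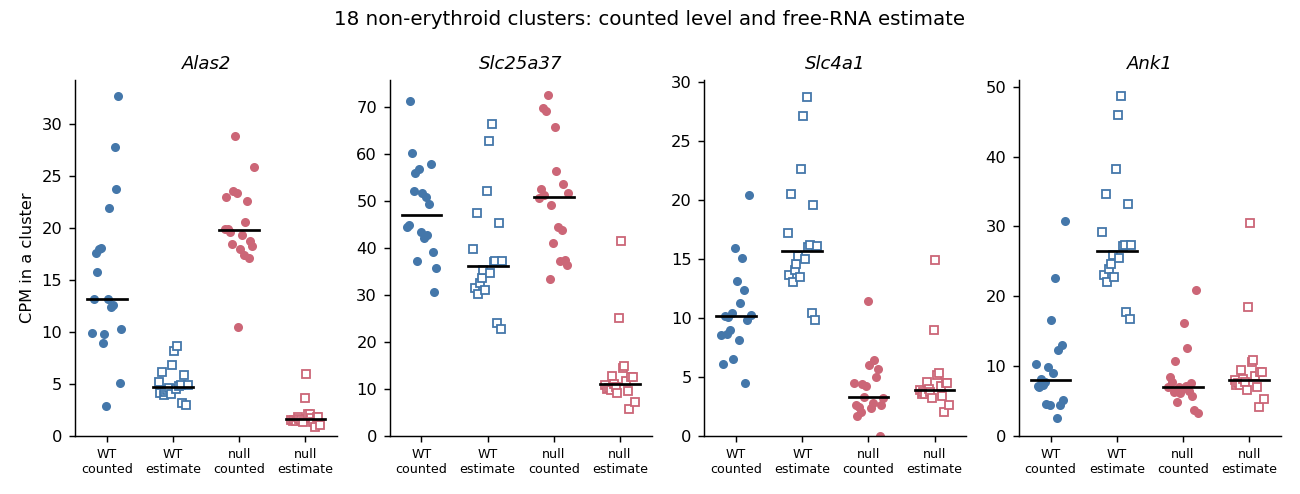
CPM of Alas2, Slc25a37, Slc4a1 and Ank1 in the 18 non-erythroid clusters, 1 point per cluster, with the counted level as filled circles and the level estimated from free erythroid RNA as open squares, for wild-type (blue) and Usb1-null (red). Black lines are medians over clusters. Alas2 lies above its estimate in null (median 19.7 CPM), whereas the medians of Slc4a1 and Ank1 lie below those of their estimates in both libraries.

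In the wider pathways of the erythroid cluster, the counts past 2-fold are to be read beside the 4.55% of all tested genes that were lower and the 2.94% that were higher. All ratios of listed genes are cluster sums, which mix cells of different depth and doublet share. No single gene of these lists, or of the early blood progenitor list below, was split by either. Of 12 counted genes of heme synthesis and its mitochondrial transport, 2 were lower and 0 higher past 2-fold, with a median log2 ratio of −0.45 beside −0.03 over all genes. Urod, which decarboxylates uroporphyrinogen, had 105 CPM in wild-type and 37.5 in null (ratio 0.356, 0.184 to 0.642). Tmem14c, which carries porphyrin into the mitochondrion, had 911 and 452 CPM (ratio 0.496, 0.415 to 0.591). At the other end, Fech, which inserts iron into the ring, had 370 and 436 CPM (ratio 1.18, 0.958 to 1.45). Genes of 1 pathway thus spread from 0.356 to 1.18.

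Among 13 counted genes of iron uptake, storage and export, 0 passed 2-fold and the median log2 ratio was −0.18. On the log2 scale with 1 CPM added, the lowest were Ncoa4, the receptor for ferritin breakdown, at 136 and 82.9 CPM (ratio 0.608, 0.389 to 0.928), and the ferritin light chain Ftl1, at 355 and 233 (ratio 0.656, 0.505 to 0.845). Aco1, the iron regulatory protein 1 that binds the hairpin shown above, had 34.5 and 45.5 CPM (ratio 1.32, 0.653 to 2.62).

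Of 17 other genes of the red cell membrane and skeleton, 2 were lower and 0 higher past 2-fold, with a median log2 ratio of −0.27. They were Icam4, the LW blood group adhesion protein, at 60.8 CPM in wild-type and 16.1 in null (ratio 0.264, 0.0910 to 0.631), and the blood group gene Rhd, at 148 and 40.1 (ratio 0.271, 0.146 to 0.472). Rhag, the partner of Rhd in the membrane, had 345 and 385 CPM (ratio 1.12, 0.896 to 1.39). Cd47, the signal that spares cells from engulfment, had 49.3 and 74.9 CPM (ratio 1.52, 0.874 to 2.63). Rhd and Rhag thus lay far apart from each other.

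Of 12 counted erythroid factors and the erythropoietin receptor, 0 passed 2-fold, with a median log2 ratio of −0.27. E2f2 had 108 CPM in wild-type and 56.2 in null (ratio 0.518, 0.301 to 0.857). Klf13 had 125 and 66.9 CPM (ratio 0.535, 0.326 to 0.851). Lmo2 and Ldb1, scaffold proteins of the GATA1 complex, were the highest, at 64.1 and 120 CPM (ratio 1.88, 1.20 to 2.96) and at 93.7 and 126 (ratio 1.34, 0.892 to 2.01). Of 8 globins, Hba-a1 (ratio 0.444, 0.378 to 0.519) and Hbb-y (0.470, 0.445 to 0.497) were past 2-fold lower and 0 were past it higher, and the median log2 ratio was −0.68. Hbb-bs had 72.3 and 91.0 CPM (ratio 1.26, 0.780 to 2.01), and Hbb-bh2 had 34.5 and 69.6 (ratio 2.02, 1.09 to 3.77), which fell short of 2-fold with 1 CPM added.

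**Figure D5:**
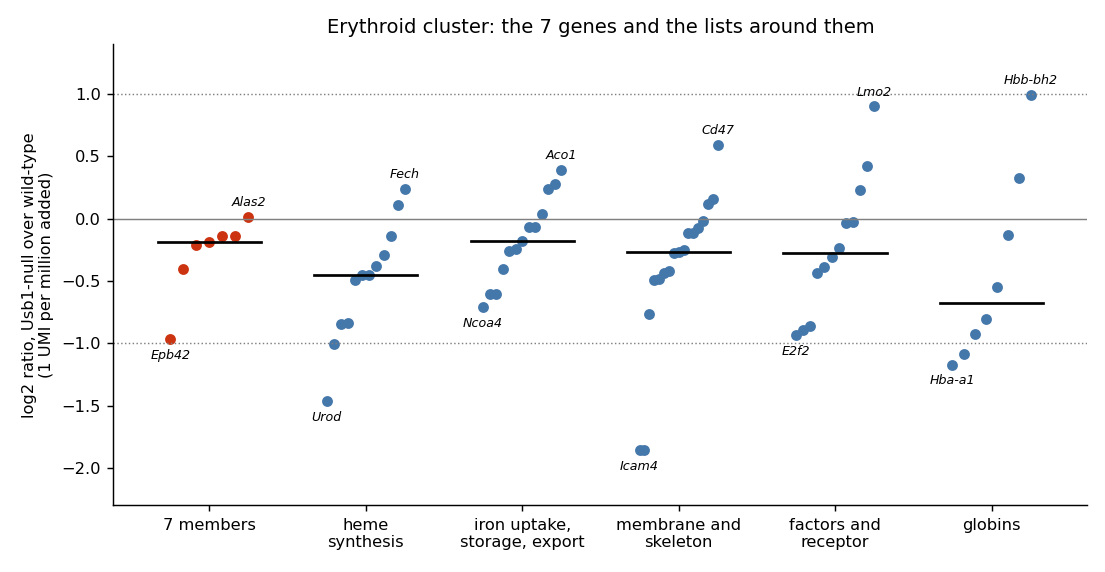
log2 ratio of CPM in the erythroid cluster (null library over wild-type, 1 CPM added) for the 7 genes (red) and for the genes with at least 20 UMIs of 5 lists (blue). Black lines are medians, dotted lines mark 2-fold and the lowest and highest gene of each list is named. The 7 genes run from −0.97 (Epb42) to 0.01 (Alas2), a narrower span than heme synthesis, at −1.47 (Urod) to 0.24 (Fech). All values are cluster sums over cells of different depth.

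Across 19 clusters in 2 libraries, 38 points that share their libraries and their depth, the genes nearest to each member were mostly erythroid genes. The likeness is Pearson's r of log2 CPM with 1 added, among 15031 genes, given as a description. For Alas2 they were Fech (r = 0.87), Pfkfb4 (0.83) and 6030468B19Rik (0.83), so its nearest gene was the last enzyme of the route that Alas2 begins. For Slc4a1 they were Hba-a2 (0.92), Hba-x (0.91) and Plin2 (0.91). For Ank1 they were Csf2rb (0.92), Kcnn4 (0.92) and Rhag (0.91). Csf2rb, the shared beta chain of cytokine receptors, had 250 CPM in wild-type and 682 in null erythroid cells, from 152 and 255 UMIs, so its likeness to Ank1 over clusters did not extend to the difference between the libraries. For Epb42 they were Cpox (0.93), 6030468B19Rik (0.92) and Bmp2k (0.91), and for Kel they included Cpox (0.92) and Redrum (0.91).

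Slc25a37 was nearest to Bmp2k (0.94), Cpox (0.93) and Redrum (0.93), and Klf1 to 6030468B19Rik (0.82), Pklr (0.82) and Txlng (0.79). Cpox is a heme synthesis enzyme and Pklr the red cell pyruvate kinase. Among the members themselves r ran from 0.57 (Alas2 with Slc4a1) to 0.91 (Epb42 with Slc25a37). Without the erythroid cluster it ran from −0.51 (Alas2 with Slc4a1) to 0.37 (Slc4a1 with Kel) over 36 points, so the likeness rested on that cluster.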

How the data were processed

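Single cells of dissociated wild-type and Usb1-null embryos were barcoded with the 10x Genomics 3′ kit (v3.1 chemistry), although the labels name the molecule as nuclear RNA. The authors deposited, per library, raw UMI counts per gene and barcode without normalisation, aligned to mm10. The file headers name Cell Ranger 6.1.2 and the submitters' processing notes Cell Ranger 2.1.1. No source says whether intronic reads were counted. The study states fewer wild-type cells than there are deposited wild-type barcodes.

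Barcodes with 200 to 6000 genes and under 30% mitochondrial UMIs were kept, following the study, which removed 1 wild-type and 16 null barcodes. Counts were scaled to 10000 per cell, and 2000 variable genes were chosen in Scanpy 1.11.5 without the 7 genes, mitochondrial, ribosomal, Xist, Tsix and Y-linked genes. Library differences in the leading 30 principal components were reduced with Harmony, rewritten in NumPy 2.4.6 (50 soft clusters, sigma 0.1, theta 2, lambda 1, 10 iterations), and a graph of 15 neighbours was split by the Leiden algorithm (leidenalg 0.10.2) at resolution 0.4, the nearest to 19 clusters. A cluster was named "-like" when 1 marker list had the most raised genes (at least 3, each with at least 10 UMIs and 2-fold) and at least 2 of the 10 leading genes (at least 50 UMIs). That rule was set after the clusters were seen, and 12 clusters were named. Since these names are not the authors' own, they can differ from those of the study. Doublets came from Scrublet, run at an expected rate of 10%, and were kept.

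UMIs were summed per library and cluster and scaled to CPM. Intervals are exact Poisson for levels, exact conditional binomial for ratios and exact Clopper-Pearson for shares, at 95%, for counting error only. With 1 library per group no test was run. Log2 ratios had 1 CPM added, which understates low genes, and genes with at least 20 UMIs were counted. The free-RNA estimate was the globin UMIs of a cluster times the ratio of gene to globin UMIs in the erythroid cluster of the same library. A cluster was counted as above it in both libraries when the lower end of the Poisson interval passed the estimate in each. The calculation was tested on simulated data. Named are all 7 genes, the 2 highest and 2 lowest ratios of each list, the 3 genes nearest in pattern with at least 100 UMIs, and clusters above the free-RNA estimate in both libraries. Some genes this rule names are not reported here. The members, lists and alternatives were chosen with earlier results of these data known. Promoters are from RefSeq and gene positions from GENCODE M21, both on GRCm38. The alternatives changed the cells kept, the clustering, the pseudocount, the total, the composition, the depth per cell, the definition of erythroid cells and the minimum of counts.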

Additional observations from a re-analysis of the deposited data

How the results depend on the processing

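No paired analysis was possible because each genotype had 1 library, and for the same reason no replicate could be left out. Of 229 alternative values, 163 stayed within the counting interval of the reported value or, for counts of genes, within 1.5 times, 65 did not and 1 reversed. With a minimum of 1000 genes per cell the summed ratio of the 7 genes was 0.970 in all cells, with 0 of the 7 past 2-fold lower, and reversed to 1.54 in the erythroid cluster, from 101 wild-type and 129 null cells. The erythroid cluster then held 33.5% and 34.6% of the 7 genes' UMIs and 1.31% and 1.10% of cells. With doublets removed the summed ratio was 0.634 in all cells and 0.758 in the erythroid cluster, where 1 of the 7 passed 2-fold lower (3 of the 7 in all cells), and the wild-type cluster share was 3.09%. With globins and the erythroid lists left out of the variable genes, the erythroid ratio was 0.781 with 1 of 7 past 2-fold, the shares of UMIs were 53.1% and 34.7%, and the wild-type cluster share was 3.07%. Weighting both libraries by the wild-type cluster shares gave a summed ratio of 0.919 with 0 of 7 past 2-fold, and with cells thinned to one depth the erythroid ratio was 0.810.

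Cells with at least 1% globin UMIs in place of the cluster gave an erythroid ratio of 0.962, shares of UMIs of 52.2% and 13.4% and shares of cells of 2.93% and 0.461%. Leaving cells with under 1% globin UMIs out of the cluster, chosen after seeing the data, gave 0.919. With no minimum of UMIs, 1 iron gene was lower and 1 higher past 2-fold, 2 membrane genes were higher, 1 erythroid factor was lower, and 1 early blood progenitor gene was lower and 2 higher, and with at least 50 UMIs 1 membrane gene was lower. The causes were not tested. Epb42 and Klf1 are limited by depth.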

Other observations

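A list of 8 early blood progenitor genes had 3 with at least 20 UMIs in the erythroid cluster, and 0 of these passed 2-fold in either direction. Runx1, a factor of blood emergence, had 210 CPM in wild-type and 284 in null (ratio 1.35, 1.03 to 1.76). Meis1 had 353 and 241 CPM (ratio 0.681, 0.527 to 0.875) and was at 893 and 869 in the other cells, and Lyl1 had 23.0 and 16.1 (ratio 0.698, 0.220 to 1.93). Kit, the stem cell factor receptor, had 11 and 7 UMIs there, Cd34 3 and 2, and Myb 1 and 0.

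Within the erythroid cluster Xist had 1862 UMIs in wild-type and 0 in null, and the Y-linked genes had 1 and 276, so that the erythroid cells of each library had the same pattern of these genes as the other cells of that library.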
